A study of Mus musculus with 4 samples.

Results

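The AP-1 family comprised 7 genes, Fos, Fosb, Fosl1, Fosl2, Jun, Junb and Jund, taken by gene symbol from the 28193 genes of the deposited table. Their measured values were not used to pick them, but earlier results of these data were known when the family was chosen. Each symbol matched 1 gene. The libraries held ribosome-bound RNA, pulled down by an HA tag, from the CA1 of male C57BL/6J mice aged 3 to 5 months. The tag was meant to mark CA1 neurons, and markers of glia were counted as well, as given below. All mice carried a pair of viral vectors, one with a 4-hydroxytamoxifen-dependent Cre (ERT2-Cre-ERT2) under a c-Fos promoter and the other with a Cre-dependent HA-tagged Rpl22, and all of them were sleep deprived for 5 h on day 0 with 4-hydroxytamoxifen given, which tagged the neurons then active. On day 7 the sleep-deprived (SD) mice were kept awake for 5 h by gentle handling, the non-sleep-deprived (NSD) mice were left undisturbed, and the CA1 of 5 mice was pooled per library at ZT5, giving n = 2 libraries per group. The labels describe the same libraries as dorsal hippocampus of cFos-Cre:Ribotag mice and give each NSD and SD pair with the same number 1 batch, 1 or 2. The tagged cells of both groups were thus chosen by Fos promoter activity on day 0, and the comparison asks what a second sleep deprivation changed in them. Because each library is a pool, less of an mRNA per cell and fewer cells that hold it cannot be told apart.

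AP-1 is a dimer of leucine zipper proteins. Jun proteins pair with each other or with a Fos protein, while Fos proteins need a Jun partner to bind DNA at the AP-1 site. In neurons Fos, Fosb and Junb are immediate early genes, whose transcription starts within minutes of calcium entry through CREB at cAMP response elements (CREs) and through SRF with its ternary complex partners at CArG boxes, while Jund is expressed steadily and Fosl2 is induced more slowly. Fosl1 is known mainly from proliferating and stressed cells.

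The bases before the gene starts are shown because they were searched for letter matches to CREs, CArG boxes and related elements. No binding or activity there was measured. The sequences are from GRCm39, the build of the deposited table, read 5′ to 3′ on the strand of the gene, and distances count back from the gene start that the table gives. Capitals mark CArG boxes, CRE half-sites (TGACG or CGTCA on the strand shown) and TATA boxes (TATAAA on the strand shown). Fos is shown from chr12:85520344-85520643 (plus strand) and Fosb from chr7:19043997-19044296 (minus strand), each from 320 to 21 bases before the start.
Fos: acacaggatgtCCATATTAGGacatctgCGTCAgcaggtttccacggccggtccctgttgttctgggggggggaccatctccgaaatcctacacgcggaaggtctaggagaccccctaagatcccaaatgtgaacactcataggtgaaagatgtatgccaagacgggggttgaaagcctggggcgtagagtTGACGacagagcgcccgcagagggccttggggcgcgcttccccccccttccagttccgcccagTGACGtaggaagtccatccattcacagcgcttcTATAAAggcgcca
Fosb: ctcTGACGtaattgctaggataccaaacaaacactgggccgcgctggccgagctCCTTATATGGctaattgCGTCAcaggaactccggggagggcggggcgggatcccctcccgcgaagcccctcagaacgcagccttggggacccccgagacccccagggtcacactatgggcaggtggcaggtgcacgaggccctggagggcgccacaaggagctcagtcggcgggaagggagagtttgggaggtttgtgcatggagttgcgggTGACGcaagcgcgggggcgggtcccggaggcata
Both promoters held a CArG box, 309 bases before the start in Fos and 266 in Fosb. No other member had one within 350 bases of the start in the table. For Fosl2 a newer annotation places these bases inside the gene, so its promoter by that annotation was not searched. A CArG box was found in 1.86% of the 16973 promoters of protein-coding genes of the table, over the same 350 bases. In Fos and Fosb alike CGTCA followed the box after exactly 7 bases. This arrangement, looked for after the sequences had been seen and only in this order and orientation, occurred in 3 of the 16973 promoters, those of Fos, Fosb and Dusp5. With any spacing of up to 20 bases it occurred in 6. Fos also held CRE half-sites 340 (outside the stretch shown), 129 and 66 bases before its start and a TATA box at 33, and Fosb held half-sites at 317 and 54. CRE half-sites on either strand were common, being present in 26.6% of all promoters. TATAAA on the strand of the gene was present in 7.32%.

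The Jun genes are shown over shorter stretches that hold the elements nearest to the start. The CRE half-sites of Jun, 327 and 303 bases before its start, lie outside the stretch shown. Capitals mark an ATF-type site (TGACNTCA on either strand) in Jun, a CRE half-site and the TATA box in Junb, and a full CRE (TGACGTCA) and a CRE half-site in Jund. The full CRE contains a half-site on each strand and is also an ATF-type site. The positions are chr4:94940460-94940579 (minus strand), chr8:85705368-85705507 (minus strand) and chr8:71151369-71151518 (plus strand).
Jun: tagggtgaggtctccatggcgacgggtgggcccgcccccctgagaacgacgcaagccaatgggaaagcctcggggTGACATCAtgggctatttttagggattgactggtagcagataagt
Junb: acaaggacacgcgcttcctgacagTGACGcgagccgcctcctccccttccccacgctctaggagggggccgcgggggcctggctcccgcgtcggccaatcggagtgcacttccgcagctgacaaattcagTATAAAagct
Jund: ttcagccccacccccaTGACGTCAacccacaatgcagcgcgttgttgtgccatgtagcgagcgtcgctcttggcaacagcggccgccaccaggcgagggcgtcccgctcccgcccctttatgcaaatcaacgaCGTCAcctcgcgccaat
The ATF-type site of Jun began 45 bases before the start, and such a site was present in 7.34% of all promoters. Jund was the only member with a full CRE, which 2.34% of promoters held. The AP-1 site TGANTCA, present in 6.83% of promoters, was found in none of the 7 windows before the starts in the table. Fosl2 had only CRE half-sites, 165 and 18 bases before its start in the table, and Fosl1 1 half-site at 349. The Fosl2 sequence is not printed, because a newer annotation (GENCODE vM39) starts this gene 438 bases upstream of the start in the table. By that annotation the whole window searched for Fosl2 lies inside the gene. The elements found or missing there thus do not describe its promoter by that annotation. The same annotation starts Fos 6 bases and Junb 12 bases further upstream, which would shorten the distances given for them by as much, and the other 4 members at the same base. A match of letters is not evidence that a factor binds there.

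Levels are given in CPM, which express each estimated count relative to its library's total, adjusted by the TMM factors of edgeR. Library totals were 153511705 to 195910235 counts and the factors 0.965 to 1.02, so that counting error was negligible for all members but Fosl1, and the precision was set by n = 2. A value after ± is a standard deviation over libraries. Divided by the merged exon length in kilobases, so that genes can be compared, Fos had the highest level, with 115, 218, 142 and 159 CPM per kilobase in NSD 1, NSD 2, SD 1 and SD 2. Jund followed at 45.6 to 50.9 CPM per kilobase and did not overlap with Fos or with any other member. Junb (19.0 to 23.5 CPM per kilobase), Fosl2 (14.1 to 22.5) and Jun (13.0 ± 1.60 over the 4 libraries) came next. The range of Fosl2 overlapped with those of Junb and Jun, which did not overlap with each other. Fosb was far lower, at 1.09 to 2.01 CPM per kilobase, and Fosl1 lowest, at 0.0237 to 0.112. With the length of the longest transcript in place of the merged exons, Fosl2 (mean 28.3 CPM per kilobase) and Junb (28.1) could not be separated, while the rest of the order was kept. In NSD and in SD alike the most abundant Fos-type mRNA was Fos and the most abundant Jun-type mRNA was Jund.

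**Figure D1:**
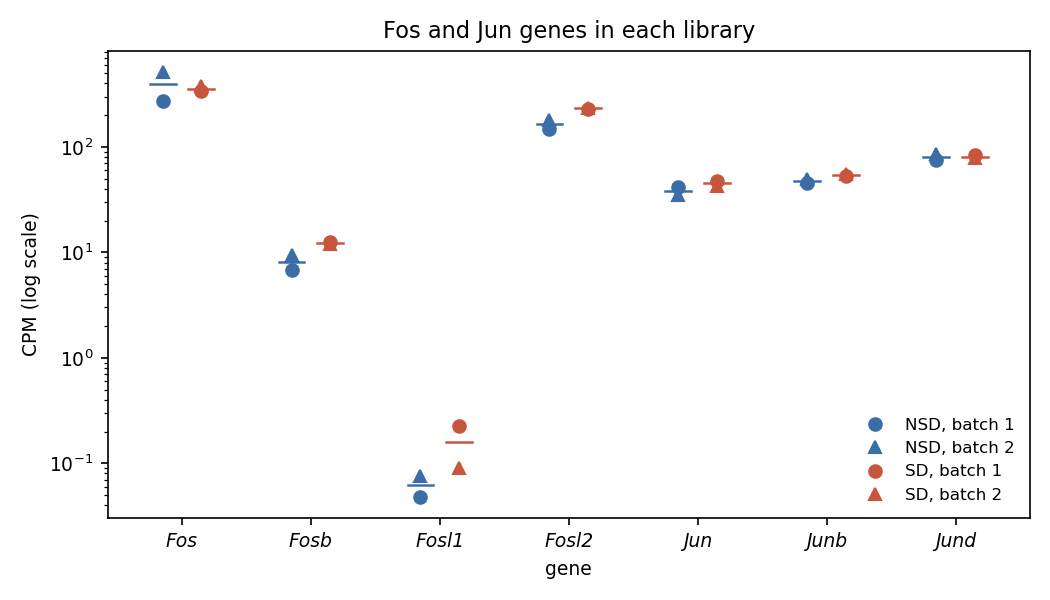
CPM of the 7 genes (log axis) in each library, with NSD in blue, SD in red, circles for batch 1, triangles for batch 2 and a bar at the mean of the 2 libraries of a group. The SD libraries are the higher pair for Fosb, Fosl1, Fosl2, Jun and Junb, while for Fos the NSD libraries (271 and 513 CPM) lie on either side of the SD libraries (336 and 375).

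Fosl2, which encodes the Fos-related protein Fra-2, was the only member that passed the test over all genes. Its level was 147 and 179 CPM in NSD 1 and 2, and 230 and 233 CPM in SD 1 and 2. The SD libraries were the higher ones and lay within a few CPM of each other. Fosl2 (ENSMUSG00000029135, chromosome 5 from 32293145 to 32315186, plus strand) rose from 163 ± 22.5 CPM in the NSD group (n = 2) to 232 ± 2.40 in the SD group (n = 2), a 1.42-fold change (log2 fold change 0.51, with a standard error, SE, of 0.099, edgeR quasi-likelihood adjusted p = 0.0400). Calls required an adjusted p under 0.05, over 22338 tested genes, together with a change of more than 1.2-fold either way. Among all genes tested 0.77% were called higher, and among protein-coding genes, the class of all 7 members, 0.952%, against 1 of the 7 members. The rise was present in both batches, with a log2 difference of 0.65 between SD 1 and NSD 1 and of 0.39 between SD 2 and NSD 2. With the batch as a replicate block the adjusted p was 5.08e-04, and with DESeq2 it was 6.52e-06. The call was lost without NSD library 1 (log2 fold change 0.41, edgeR adjusted p = 0.0637), and under 3 other choices of genes entered it lay just past the threshold, at edgeR adjusted p values of 0.0501 to 0.0656.

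Fosb encodes FosB and, by alternative splicing, the stable ΔFosB that accumulates with repeated neuronal activity. A count per gene cannot separate these forms. Its levels were 6.80 and 9.41 CPM in NSD 1 and 2, and 12.6 and 12.1 CPM in SD 1 and 2. The groups did not overlap. Fosb (ENSMUSG00000003545) differed by 1.52-fold, from 8.11 ± 1.85 CPM in NSD to 12.3 ± 0.336 CPM in SD (n = 2 each), a log2 fold change of 0.60 with an SE of 0.15, and was not called (edgeR adjusted p = 0.0711). It was called higher with the replicate block (log2 fold change 0.62, edgeR adjusted p = 0.00388), where 2.99% of genes were called higher, and with DESeq2 (adjusted p = 0.00342). DESeq2 was the test of the study, which reports Fosb among its upregulated genes. The within-batch log2 differences were 0.88 in batch 1 and 0.36 in batch 2. Without NSD library 2 the log2 fold change was 0.86 and without NSD library 1 it was 0.42. The test passed when NSD library 2, SD library 1 or SD library 2 was left out (edgeR adjusted p = 0.0163, 0.0110 and 0.00383), settings in which the lone library of a group is assumed to vary like the pair of the other group.

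Fosl1, which encodes Fra-1, was close to absent. Its estimated counts were 7.667 and 11.61 in NSD 1 and 2, and 40.75 and 16.92 in SD 1 and 2. Exact Poisson 95% intervals, which cover counting error only, were 29.4 to 55.6 counts in SD 1 and 9.90 to 27.2 counts in SD 2, and 3.45 to 15.8 counts in NSD 1. Only SD library 1 lay apart from the others beyond counting error, and the log2 fold change of 1.34 (SE 0.67, edgeR adjusted p = 0.331) was 0.53 without it. In addition 1163 of its exon bases are shared with Ccdc85b on the opposite strand, a gene with 399 times its count, and whether the counting used the strand is not given in the sources used here.

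None of the Jun genes was called. Jun (ENSMUSG00000052684) is a gene of a single exon on chromosome 4 from 94937271 to 94940459, and Junb (ENSMUSG00000052837, from 85701113 to 85705347) and Jund (ENSMUSG00000071076, from 71151599 to 71153265) lie on chromosome 8. Junb, which is induced with Fos and whose protein often restrains c-Jun, was at 45.3 and 49.2 CPM in NSD and 52.9 and 55.9 CPM in SD. The SD libraries lay above the NSD libraries, with a log2 fold change of 0.20 (SE 0.073, edgeR adjusted p = 0.168, 0.0322 with the replicate block). Jun, the partner with the strongest transactivation domain, was at 41.2 and 35.1 CPM in NSD and 47.6 and 42.4 CPM in SD. Here too the groups did not overlap, with a log2 fold change of 0.24 (SE 0.095, edgeR adjusted p = 0.223, 0.0188 with the replicate block). With or without the block both genes stayed under the fold change of 1.2 and neither was called. Within batches Jun differed by 0.21 and 0.27 and Junb by 0.23 and 0.19 on the log2 scale. The log2 fold change of Jun was 0.13 without NSD library 2, 0.15 without SD library 1 and 0.39 without NSD library 1, while Junb stayed between 0.18 and 0.27 with each library left out. Junb shares 173 exon bases with Prdx2 on the opposite strand, which had 1.54 times its count. Jund, at 75.9 and 84.8 CPM in NSD and 83.3 and 77.8 CPM in SD, had a log2 fold change of 0.003 (SE 0.077, edgeR adjusted p = 0.992), and its groups overlapped. Its sign depended on the scaling, being -0.06 with library totals alone.

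Fos itself was the most variable of the abundant members. It was at 271 CPM in NSD 1 and 513 CPM in NSD 2, and at 336 and 375 CPM in SD 1 and 2. The NSD libraries enclosed the SD libraries. Fos (ENSMUSG00000021250, chromosome 12 from 85520664 to 85524047) had a log2 fold change of -0.14 (SE 0.24, edgeR adjusted p = 0.827), 0.39 without NSD library 2 and -0.50 without NSD library 1. Within batches it was higher in SD in batch 1 (log2 difference 0.31) and lower in batch 2 (-0.45). Between the NSD libraries Fos differed by 0.92 on the log2 scale. Of the 10397 protein-coding genes with a mean over 5 CPM, 15 including Fos were at least as far apart, and 4 of these were higher in NSD 2. Fosl2 differed by 0.28 between the NSD libraries, Fosb by 0.47, Junb by 0.12 and Jun by -0.23. The gap between the NSD libraries was thus largest for Fos among these members.

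**Figure D2:**
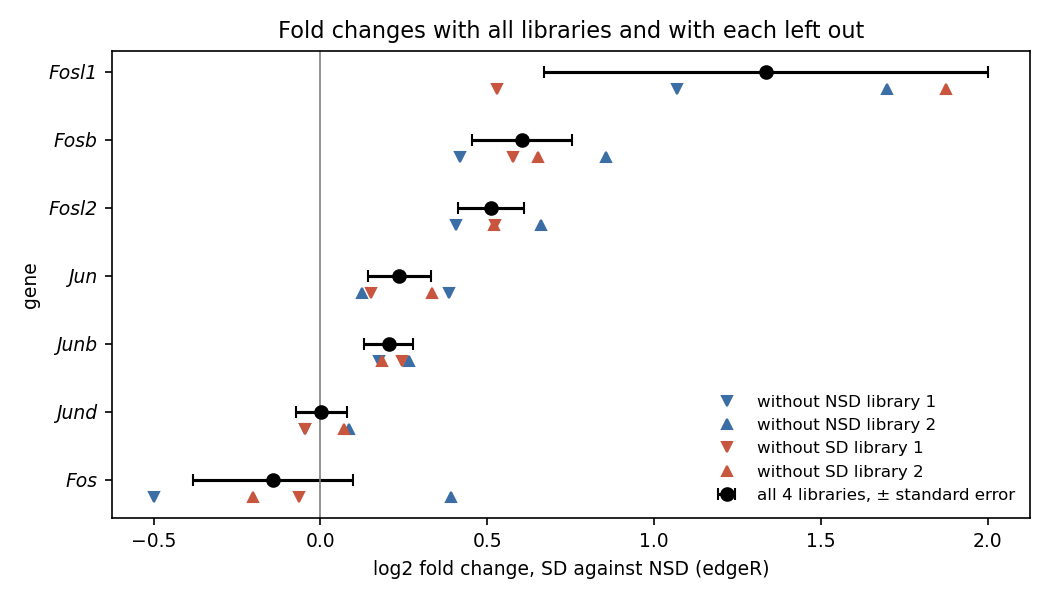
Log2 fold change of SD against NSD for the 7 genes from the edgeR fit with all 4 libraries (black, bars are 1 standard error) and with 1 library left out (triangles). Fosl2, Fosb, Fosl1, Jun and Junb stay above 0 in every setting drawn, while Fos ranges from -0.50 without NSD library 1 to 0.39 without NSD library 2 and Jund lies near 0.

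Genes with the profile most like that of Fos over the 4 libraries were found among protein-coding genes over 5 CPM by the root mean square distance of log2 CPM values centred on each gene's mean. The 3 nearest were Gm50388 (distance 0.0809), a readthrough gene model, Rpl22 (0.129) and Esr1 (0.140). Rpl22 was at 628 and 1040 CPM in NSD 1 and 2 and at 610 and 809 CPM in SD 1 and 2. Esr1 was at 22.9 and 35.0 CPM in NSD and at 25.6 and 24.8 CPM in SD. Gm50388 was at 6.13 and 10.5 CPM in NSD and at 7.7 and 8.92 CPM in SD. All 3 neighbours were highest in NSD library 2, as Fos was. Rpl22 is the ribosomal protein that one vector carries with the HA tag, Esr1 encodes the estrogen receptor whose human ligand-binding domain, in altered form, is the ERT2 of the other vector, and the c-Fos promoter drives that Cre. Whether reads of the vectors entered the counts of Fos, Rpl22 and Esr1 was not tested, since a count per gene does not show where in the gene its reads lie. As a ratio within the library, chosen after these values had been seen, Fos was 0.431 and 0.491 times Rpl22 in NSD 1 and 2 and 0.551 and 0.463 times in SD 1 and 2. Against Esr1 it was 11.8 and 14.7 times in NSD and 13.1 and 15.1 times in SD. The groups overlapped on both scales. Since Rpl22 and Esr1 were taken for profiles near that of Fos, a smaller gap between the NSD libraries follows from that choice and is no result.

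**Figure D3:**
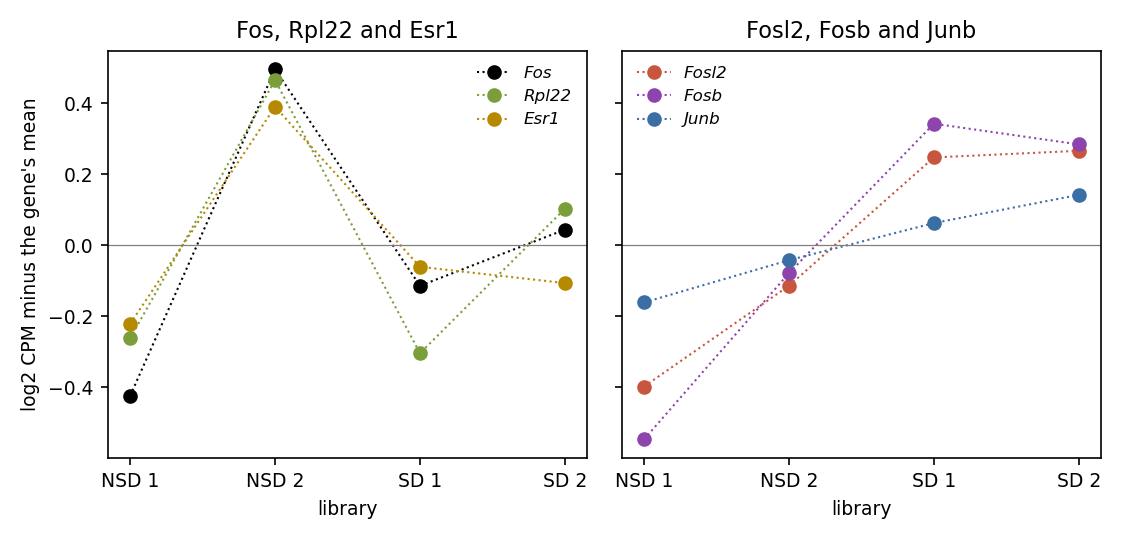
Log2 CPM of each gene minus its mean over the 4 libraries, in the libraries NSD 1, NSD 2, SD 1 and SD 2 (dotted lines only join the points of a gene, and the libraries of a group have no order). On the left Fos, Rpl22 and Esr1 peak in NSD library 2, and on the right Fosl2, Fosb and Junb are higher in both SD libraries. Gm50388, whose profile was nearest to that of Fos, is not drawn.

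The profile of Fosl2 was shared by many genes, with 89 within a distance of 0.1, against 11 for Fosb and 1 for Fos. Nearest to Fosl2 were Gpr3 (distance 0.0153), Gpr161 (0.0219) and Ptprt (0.0236), of which Ptprt was called (log2 fold change 0.52, edgeR adjusted p = 0.0400). Nearest to Fosb were Gfra1 (0.0581), the readthrough gene model Gm21985 (0.0663) and Tns1 (0.0698). Among the members the closest pair was Fosb and Fosl2 (0.0878), followed by Junb and Jund (0.119) and by Jun and Junb (0.153). Fos was nearer to Jund (0.287) than to Fosl2 (0.374) or Fosb (0.389). These distances rest on 4 libraries and describe them only.

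The make-up of the family can be read within each library, where library scaling plays no part. Fosb equalled 2.51% and 1.83% of the Fos count in NSD 1 and 2 and 3.74% and 3.22% in SD 1 and 2. Fosl2 equalled 54.1% and 34.8% in NSD and 68.5% and 62.2% in SD. Both ratios were higher in each SD library than in either NSD library, with group means 0.69 apart for Fosb and 0.59 for Fosl2 on the log2 scale and an exact permutation p (two-sided) of 0.333 each, the smallest that 2 against 2 libraries allow. For Jun, Junb and Jund the ratios to Fos overlapped between groups and were lowest in NSD library 2. All these ratios carry the variation of Fos described above. Leaving out NSD library 2 gave a difference of 0.27 for Fosl2 and 0.47 for Fosb, and leaving out NSD library 1 gave 0.91 and 0.92. Without Fos, the Fos-type mRNAs summed to 154 and 188 CPM in NSD and 243 and 246 CPM in SD, and the Jun-type mRNAs to 162 and 169 CPM in NSD and 184 and 176 CPM in SD. With Fos the Fos-type sum was 425 and 701 CPM in NSD and 579 and 621 CPM in SD. Within the Jun family Jund held 46.7% and 50.2% of the count in NSD and 45.3% and 44.2% in SD, and Junb 27.9% and 29.1% in NSD and 28.8% and 31.8% in SD.

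As a group, 6 of the 7 members had a log2 fold change above 0, against 47.2% of all genes tested and 54.2% of protein-coding genes, and the median was 0.24, against -0.02 over all genes and 0.02 over protein-coding genes. For 5 members the SD pair was higher without overlap, which held for 22.0% of all genes tested and 26.5% of protein-coding genes, and for no member was it lower without overlap (27.5% of all genes tested, and 3106 of the 15551 protein-coding genes). No member was called lower by any of the 3 fits, where 2.33% of all genes were lower in edgeR, 8.47% with the block and 5.79% with DESeq2. Among protein-coding genes these shares were smaller, at 0.54%, 3.29% and 1.79%, and nothing is read from the lack of a lower call. The called members, 1 of 7 in edgeR and 2 of 7 with the block and with DESeq2, thus stand beside 3.1%, 11.5% and 8.79% of all genes called in either direction. At an unadjusted p under 0.05 there were 4 members, Fosb, Fosl2, Jun and Junb, against 19.1% of all genes tested and 14.6% of protein-coding genes. The family was chosen with earlier results of these data known, so these counts describe it and are no test.

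Proteins that pair or compete with Fos and Jun form the first list around the family, 23 ATF, BATF, MAF and related leucine zipper genes. All 23 were tested, 1 was called higher and none lower (0.77% and 2.33% of all genes), while 6 were at an unadjusted p under 0.05 (19.1% of all genes tested, 14.6% of protein-coding genes), and the median log2 fold change was 0.12. The called gene was Crebl2, a CREB-like factor, at 41.2 and 40.9 CPM in NSD and 53.7 and 53.2 CPM in SD (a log2 rise of 0.38 with an SE of 0.064, edgeR adjusted p = 0.0369). Its libraries were nearly identical within each group, and its log2 fold change stayed between 0.38 and 0.41 with each library left out. Atf4, the translationally controlled stress factor that can pair with Fos and Jun proteins, was at 85.8 and 92.4 CPM in NSD and 107 and 108 CPM in SD (log2 fold change 0.27, edgeR adjusted p = 0.0698, called with the replicate block at 0.00557). Creb5, a partner of Jun, was at 12.6 and 9.22 CPM in NSD and 9.20 and 7.04 CPM in SD (log2 fold change -0.43, edgeR adjusted p = 0.236), and was called lower with the block (0.0111). With the block 2 partners were called higher and 1 lower, beside 2.99% and 8.47% of all genes. Atf3, a stress-induced partner of Jun proteins, was under 1 CPM in every library, at 0.72 on the log2 scale (edgeR adjusted p = 0.547) and at -0.20 without SD library 1.

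The regulators of the Fos and Jun genes include factors known to bind elements of the kinds marked above, although binding was not measured here. None of the 18 was called, 6 were at an unadjusted p under 0.05 beside the same shares of 19.1% and 14.6%, and with the block 1 was called higher and 1 lower (2.99% and 8.47% of all genes). DESeq2 called 2 higher, and 2.99% of all genes. Srf was at 49.7 and 47.9 CPM in NSD and 56.4 and 57.7 CPM in SD (log2 fold change 0.23, edgeR adjusted p = 0.101, 0.0210 with the replicate block, under the fold threshold). The ternary complex factors Elk1 (0.26, edgeR adjusted p = 0.0960) and Elk4 (0.31, edgeR adjusted p = 0.0865) were also without overlap, and Elk4 was called with the block (0.00421). Elk3 was at 5.31 and 4.05 CPM in NSD and 3.38 and 2.99 CPM in SD (log2 fold change -0.56, edgeR adjusted p = 0.149, called lower with the block at 0.0257). Elk3 is known from blood vessels, and the endothelial markers, whose part in its value was not tested, summed to 49.7 and 69.5 CPM in NSD and 40.7 and 26.4 CPM in SD. Crtc2, a CREB coactivator, was at -0.22 (edgeR adjusted p = 0.446), and Creb1 at 0.19 (edgeR adjusted p = 0.205).

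Of 28 kinases and JNK scaffold proteins (Mapk8ip1, Mapk8ip2 and Mapk8ip3) that act on Fos and Jun proteins or signal to their genes, none was called without the block, 5 were at an unadjusted p under 0.05, a share near the 19.1% of all genes and 14.6% of protein-coding genes, and the replicate block and DESeq2 each called 2 higher, as well as 2.99% of all genes. With the block these were Rps6ka2, a kinase of the RSK family (log2 fold change 0.31, edgeR adjusted p = 0.0689, 0.00538 with the block), and Map3k5, the stress kinase ASK1 (0.29, edgeR adjusted p = 0.106, 0.00996 with the block). The JNK genes Mapk8, Mapk9 and Mapk10 were at 0.09, 0.19 and -0.001, and Mapk3 was at 0.13. The lowest values were those of Mapk7 (-0.22, edgeR adjusted p = 0.326) and its activator Map2k5 (-0.15, edgeR adjusted p = 0.339).

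Among 26 genes with a known AP-1 or FosB response, 24 were in the table and 23 were tested, with 1 called higher, 1 lower and a median log2 fold change of -0.06. Of all genes tested 0.77% were called higher and 2.33% lower, and of protein-coding genes 0.952% and 0.54%. Penk, the enkephalin precursor, fell from 17.7 and 19.0 CPM in NSD to 12.8 and 13.1 CPM in SD, a log2 fold change of -0.50 with an SE of 0.089 (edgeR adjusted p = 0.0379). The groups were well apart, although the call was lost without NSD library 2 (-0.45, edgeR adjusted p = 0.0562). Nr4a1, a nuclear receptor that is itself an immediate early gene, rose from 90.6 and 105 CPM to 128 and 130 CPM (log2 fold change 0.40, edgeR adjusted p = 0.0472), a call lost without NSD library 1 (0.32, edgeR adjusted p = 0.0852). Nptx2, a secreted pentraxin of excitatory synapses, was at 25.6 and 33.1 CPM in NSD and 20.7 and 23.1 CPM in SD (log2 fold change -0.43, edgeR adjusted p = 0.101, called lower with the block at 0.00246). Vgf, a neuropeptide precursor, was at 368 and 469 CPM in NSD and 485 and 526 CPM in SD (log2 fold change 0.27, edgeR adjusted p = 0.266, called higher with the block at 0.0246). Bdnf (-0.05), Scg2 (0.01) and Gria2 (-0.09) were near 0. The genes of this list thus did not share a direction.

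Factors that control the turnover of Fos and Jun proteins or mRNAs numbered 14, with 1 called higher and none lower, and 3 higher with the block. Among all genes tested 0.77% were called higher, and 2.99% with the block. Trib1, an adaptor of the COP1 ubiquitin ligase, was at 15.1 and 15.6 CPM in NSD and 22.9 and 23.1 CPM in SD, and rose by 0.58 on the log2 scale (SE 0.080, edgeR adjusted p = 0.0328). Trib2, its relative, was at 44.2 and 55.1 CPM in NSD and 66.6 and 66.5 CPM in SD (0.42, edgeR adjusted p = 0.0617, 0.00158 with the block). Hnrnpd, the AU-rich element binding protein AUF1, was at 114 and 117 CPM in NSD and 151 and 139 CPM in SD (0.32, edgeR adjusted p = 0.0532, 0.00378 with the block). Both were called with the block. Cop1 itself was at -0.16 (edgeR adjusted p = 0.398) and Zfp36, which destabilizes Fos mRNA, at -0.12 (edgeR adjusted p = 0.843). Of the 4 list genes called without the block, Crebl2, Penk, Nr4a1 and Trib1, none was called with filterByExpr (edgeR adjusted p = 0.0628 to 0.0734), only Trib1 without a minimum count, and only Penk and Trib1 with protein-coding genes alone. Nr4a1 was also not called with library totals alone (0.0637).

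Other immediate early transcription factors give a frame for the family. Of 18 such genes, 3 of which also stand in a list above, 1 was called higher, Nr4a1 (0.77% of all genes tested), and with the block 5 were called higher and 1 lower (2.99% and 8.47% of all genes). Egr1 (0.38), Egr4 (0.38), Nr4a2 (0.33) and Ier5 (0.38) were higher in each SD library than in either NSD library, and the block gave calls for all 4 (edgeR adjusted p = 0.00433, 0.00476, 0.00416 and 0.00453). Npas4, the factor most selectively induced by calcium entry in neurons, was at 5.57 and 4.68 CPM in NSD and 3.72 and 3.73 CPM in SD (log2 fold change -0.46, edgeR adjusted p = 0.160, called lower with the block at 0.0490). Egr2 (0.64, edgeR adjusted p = 0.379) was high in SD library 1 alone, at 8.84 CPM, and Klf4 was at -0.32 (edgeR adjusted p = 0.568). Fosb and Fosl2 had larger log2 fold changes than Egr1, Egr4 and Nr4a1. They had smaller ones than Egr2 and Atf3 (0.72), whose groups overlapped. Differences between genes were not tested. Dusp5, the third gene with the CArG and CRE arrangement, was at 22.8 and 26.8 CPM in NSD and 40.7 and 40.3 CPM in SD (log2 fold change 0.71, edgeR adjusted p = 0.0328). With the same arrangement Fos was at -0.14 (edgeR adjusted p = 0.827) and Fosb at 0.60 (0.0711), neither called without the block. A link between the arrangement and the fold change was not tested.

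**Figure D4:**
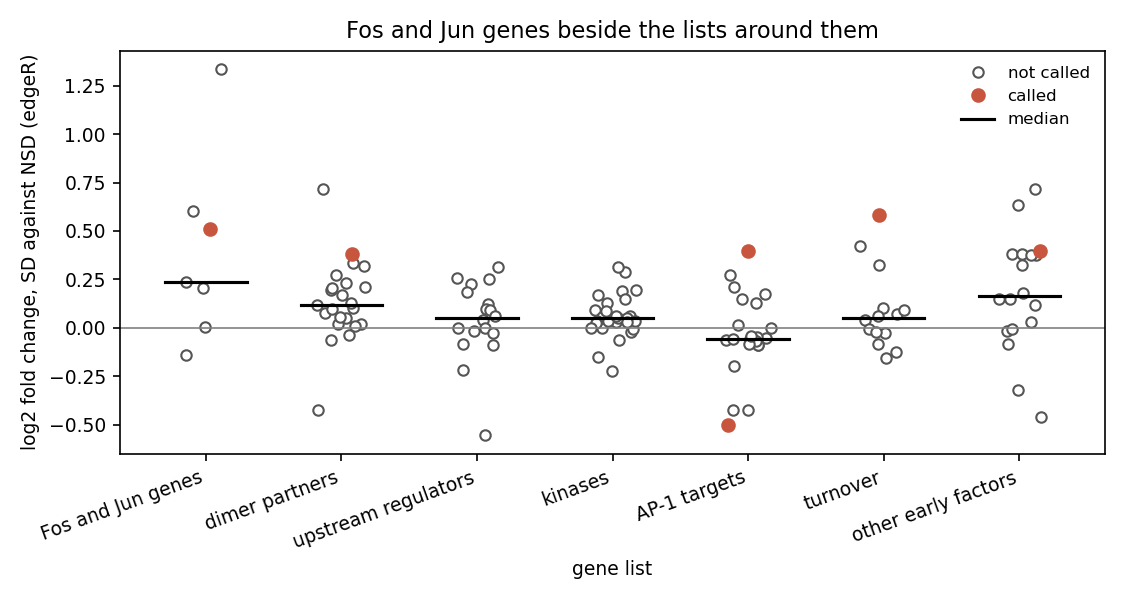
Log2 fold change of SD against NSD for each tested gene of the Fos and Jun family and of 6 lists around it (red, called; open, not called; bar, median of the list). The medians run from -0.06 for AP-1 targets to 0.24 for the Fos and Jun genes, and each list holds genes on both sides of 0.

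Marker genes were summed to see which cells the libraries drew on. Pan-excitatory markers summed to 5100 to 5450 CPM and CA1 pyramidal markers to 1170 to 1390 CPM, against 68.8 to 93.3 CPM for dentate granule and 29.7 to 36.6 CPM for CA3 markers. Astrocyte markers were at 3180 to 3790 CPM, oligodendrocyte markers at 1570 to 1890, interneuron markers at 759 to 838, microglial markers at 78.9 to 102 and mural markers at 67.6 to 86.8. No marker of these lists was at 0 in any library. Fos, Jun, Junb and Fosl2 are also expressed by glia and endothelium. The 10 endothelial markers had log2 fold changes below 0 in 10 of 10, 8 of them without overlap between groups. None of the 10 was called, 7 were at an unadjusted p under 0.05, and the block called 6 and DESeq2 4. Over all genes tested 27.5% were lower without overlap, 19.1% were at an unadjusted p under 0.05, and 8.47% with the block and 5.79% with DESeq2 were called lower. Of the 6 CA1 pyramidal markers none was called, 4 were at an unadjusted p under 0.05, 3 were lower and 2 higher without overlap (27.5% and 22.0% of all genes tested), the block called 4 and DESeq2 3 (11.5% and 8.79% of all genes in either direction), and the median was -0.11. Of the 8 astrocyte markers 6 were above 0, with a median of 0.04, and none was called or at an unadjusted p under 0.05. The astrocyte and oligodendrocyte sums exceeded the CA1 pyramidal sum in every library, although sums of different genes do not give shares of cells. No library of the RNA before the pull-down is among the samples, so enrichment for the tagged neurons cannot be shown. The part of each of these cell types in the values of the members was not tested.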

How the data were processed

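fosTRAP-seq libraries (2 NSD, 2 SD) were analysed. The authors trimmed reads, aligned them with STAR to mm39 and assigned them to Ensembl genes with the Partek E/M model, which gave the deposited estimated counts, not normalized and here rounded. Genes above 5 counts in each library were tested with edgeR 4.0.16 (R 4.3.3): TMM scaling, quasi-likelihood test, condition as the only term, Benjamini-Hochberg adjustment over all genes. The alternative was DESeq2 1.42.0, the method with which the authors called their genes. Standard errors are the log2 fold change divided by the root of F. The labels give batch numbers that match the replicate numbers, so these pair the libraries (correlation of deviations 0.178). Mice were housed singly before the sleep deprivation, and the labels do not say whether the pools share earlier cages or days. The p-values therefore measure the spread between pools. Lengths and overlaps came from GENCODE vM39, promoters from GRCm39. The fits were also run on simulated counts, with larger changes than those of the called members and list genes and without a batch effect. Such a run does not show how well changes of the size given here are found. Named were all members, list genes called with or without the block, the extremes of lists with few calls, and the 3 nearest profiles, apart from a few genes whose results are left out. Creb1, Srf, Dusp5, Bdnf, Scg2, Gria2, Mapk3 and the JNK genes were added after their values were seen. Members and lists were chosen with earlier results of these data known.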

Additional observations from a re-analysis of the deposited data

How the results depend on the processing

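Fosl2 was the member whose call depended on which genes entered, at log2 fold changes of 0.54 without a minimum count (edgeR adjusted p = 0.0519), 0.52 with filterByExpr (0.0656) and 0.49 with protein-coding genes only (0.0501), and it ranged from 0.41 to 0.66 with each library left out. Fosb was called with the replicate block (0.62) and with DESeq2 (0.63), and ranged from 0.42 to 0.86. Fos ranged from -0.50 to 0.39, and relative to Rpl22 or Esr1, taken after the data were seen as genes near its profile and themselves at -0.24 and -0.20, its log2 difference was 0.13 or 0.10, a change of sign that this choice brings about. Jund turned to -0.056 with library totals alone and to -0.018 with protein-coding genes only, and ranged from -0.046 to 0.085. Jun, Junb and Fosl1 kept their sign in all settings tried. The log2 ratios to Fos ranged from -0.27 to 0.89 for Jun, from -0.12 to 0.68 for Junb and from -0.31 to 0.46 for Jund. Per kilobase of the longest transcript, Fosb, Fosl2 and Junb were at 2.7, 28.3 and 28.1 CPM.

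Counts of calls moved most. Over all genes 172 were called higher and 520 lower, of which 148 and 84 were protein-coding, against 668 and 1891 with the block, 669 and 1294 with DESeq2, 50 and 80 without a minimum count, 1 and 0 with filterByExpr in edgeR (1594 and 2816 at an unadjusted p under 0.05), 51 and 39 with protein-coding genes only, and 96 and 694 with library totals alone. With a library left out the higher calls ranged from 144 (without NSD library 1) to 321 (without SD library 2), and the lower from 87 (without NSD library 1) to 1953 (without SD library 1). For the Fos and Jun genes, dimer partners, regulators, kinases, targets, turnover factors and other early factors, the block gave 2, 3, 2, 2, 4, 3 and 6 calls, and DESeq2 gave 2 members, 2 partners, 2 regulators, 2 kinases, 3 turnover factors and 4 early factors. Without a minimum count, with filterByExpr and with protein-coding genes only, 0 members, 0 partners and 0 early factors were called, and targets numbered 0, 0 and 1. Library totals alone gave 1 target and 0 early factors, DESeq2 size factors 2 turnover factors, and filterByExpr 0 turnover factors. With a library left out the calls ranged from 0 to 2 for members, 1 to 2 for partners, 0 to 1 for regulators, 0 to 2 for kinases, 1 to 3 for targets, 1 to 3 for turnover factors and 0 to 5 for early factors. The causes were not tested. Genes of the biotype TEC, provisional gene models, held 0.273% and 0.21% of the count in NSD and 0.157% and 0.118% in SD. Among the members counting error limits only Fosl1, and in the lists it also limits genes as rare, such as Batf, Batf3 and Timp1.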
